A study of Mus musculus with 10 samples.

Results

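The nuclear-encoded subunits of the mitochondrial respiratory chain and the ATP synthase were examined as a group of 60 promoter peaks in cultured mouse retina. Members were the autosomal peaks of the deposited peak table that were annotated as promoter, which the authors placed between 1000 bp before and 500 bp after a transcription start site (TSS), and whose gene symbol named a subunit of complex I (Nduf), complex II (Sdh), complex III (Uqcr), complex IV (Cox) or the ATP synthase (Atp5, here complex V). A gene with several promoter peaks was represented by the peak with the highest mean signal over the 10 libraries. This gave 28 genes of complex I, 4 of complex II, 5 of complex III, 11 of complex IV and 12 of complex V, out of 14154 autosomal genes with a promoter peak and 108253 peaks in all.

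The retinas came from wild-type C57Bl/6J mice at postnatal day 28 and were kept as explants, freed of sclera and pigment epithelium, for 48 h in medium with 5 mM or 25 mM glucose. Dissociated cells were then profiled by CUT&Tag, in which an antibody directs a transposase to a chromatin mark, for lactylation of histone H3 at lysine 18 (H3K18La) in 3 libraries per glucose level and for acetylation at lysine 27 (H3K27Ac) in 2 libraries per level. The extract protocol in the labels names pA-MNase and an antibody to H3K9me3 in place of H3K27Ac; the sample titles and the study's methods, which give the transposase and H3K27Ac, were followed here. The comparison asks how glucose supply relates to both marks at the promoters of the machinery that oxidises its products. The labels call the replicates biological but do not say which animals or cultures they came from, so p-values measure only the spread between these libraries, and fewer marked cells cannot be told apart from less mark per cell.

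Complex I takes electrons from NADH and complex II from succinate, complex III passes them to cytochrome c, and complex IV hands them to oxygen. The proton gradient that complexes I, III and IV build drives ATP synthesis by complex V. Most subunits are encoded in the nucleus and their promoters are commonly rich in CpG and bound by nuclear respiratory factors and other widely expressed activators, while a few subunits have tissue-restricted isoforms. Rod and cone photoreceptors carry dense mitochondria in their inner segments although the retina ferments much of its glucose to lactate.

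Promoter sequences from RefSeq (GRCm38.p6, 250 bases before to 50 after the TSS) matched 48 of the 60 members. The letters of 5 motifs were searched on both strands, with overlapping matches counted separately: CGCANGCG for nuclear respiratory factor 1 (NRF1), CCGGAAG for ETS factors, AANATGGCG for YY1, GGGCGG for SP factors and TGACGTCA for a cyclic AMP response element (CRE). The NRF1 letters occurred in 18 of 48 member windows (37.5%) and in 15.8% of the windows of 9785 genes with a promoter peak. The YY1 letters were in 6 member windows (12.5%) against 4.25% of all windows, the CRE letters in 4 (8.33%) against 3.01%, and the ETS letters in 10 (20.8%) against 14.8%. The SP letters were in 18 windows (37.5%), below the 61.0% of all windows. A member window had to overlap the member's peak, whereas each of the 9785 windows was the first listed for its gene, so the window rules differ. A match describes the letters and is not a measured binding site. The 8 windows printed next belong to 5 members whose signal passed the test in both marks (Ndufv1, Ndufa3, Ndufb4, Sdhb, Uqcrc1) and to 3 with wide gaps between the marks (Atp5b, Atp5j2, Ndufs5), with capitals at every motif match.
Ndufv1, chr19:4012706-4013005, minus strand: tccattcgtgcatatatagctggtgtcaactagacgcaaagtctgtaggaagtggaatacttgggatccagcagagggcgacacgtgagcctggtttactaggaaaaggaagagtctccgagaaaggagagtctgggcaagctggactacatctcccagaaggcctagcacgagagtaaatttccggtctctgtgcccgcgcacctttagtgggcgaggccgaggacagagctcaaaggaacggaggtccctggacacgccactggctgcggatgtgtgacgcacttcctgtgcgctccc
Ndufa3, chr7:3617123-3617422, plus strand: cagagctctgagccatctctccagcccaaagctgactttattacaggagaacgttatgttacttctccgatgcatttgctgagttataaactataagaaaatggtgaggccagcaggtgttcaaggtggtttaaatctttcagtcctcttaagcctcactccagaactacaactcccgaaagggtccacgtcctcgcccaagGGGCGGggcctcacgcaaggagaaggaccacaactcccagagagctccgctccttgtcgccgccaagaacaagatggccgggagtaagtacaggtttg
Ndufb4, chr16:37654319-37654618, minus strand: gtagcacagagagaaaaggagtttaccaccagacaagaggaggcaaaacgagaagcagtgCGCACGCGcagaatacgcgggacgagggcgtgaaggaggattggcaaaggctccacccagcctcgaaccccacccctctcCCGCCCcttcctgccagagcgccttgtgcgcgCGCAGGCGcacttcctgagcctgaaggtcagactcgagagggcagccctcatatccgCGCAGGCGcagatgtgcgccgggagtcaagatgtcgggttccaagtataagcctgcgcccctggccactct
Sdhb, chr4:140961021-140961320, plus strand: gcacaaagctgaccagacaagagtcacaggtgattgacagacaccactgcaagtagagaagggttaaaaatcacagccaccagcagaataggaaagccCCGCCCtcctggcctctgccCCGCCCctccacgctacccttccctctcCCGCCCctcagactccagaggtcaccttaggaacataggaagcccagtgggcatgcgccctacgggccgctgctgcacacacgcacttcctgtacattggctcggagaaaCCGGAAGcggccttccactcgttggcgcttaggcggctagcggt
Uqcrc1, chr9:108936398-108936697, plus strand: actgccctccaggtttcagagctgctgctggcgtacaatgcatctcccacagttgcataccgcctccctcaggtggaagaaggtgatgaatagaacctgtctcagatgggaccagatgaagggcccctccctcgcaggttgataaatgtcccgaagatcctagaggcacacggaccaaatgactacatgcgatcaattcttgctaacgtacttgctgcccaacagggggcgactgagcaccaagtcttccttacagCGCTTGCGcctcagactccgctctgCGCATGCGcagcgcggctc
Atp5b, chr10:128083057-128083356, plus strand: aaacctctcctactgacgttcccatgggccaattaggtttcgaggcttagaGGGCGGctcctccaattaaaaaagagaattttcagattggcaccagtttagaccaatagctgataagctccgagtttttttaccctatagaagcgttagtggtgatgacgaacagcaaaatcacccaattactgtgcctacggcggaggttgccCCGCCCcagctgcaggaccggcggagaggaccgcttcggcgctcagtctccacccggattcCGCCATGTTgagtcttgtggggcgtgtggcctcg
Atp5j2, chr5:145191492-145191791, minus strand: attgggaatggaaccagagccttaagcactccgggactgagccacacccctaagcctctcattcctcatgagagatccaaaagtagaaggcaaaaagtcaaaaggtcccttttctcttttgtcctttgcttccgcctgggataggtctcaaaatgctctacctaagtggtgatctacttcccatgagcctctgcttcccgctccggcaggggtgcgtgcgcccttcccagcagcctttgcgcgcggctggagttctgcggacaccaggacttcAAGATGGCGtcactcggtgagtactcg
Ndufs5, chr4:123718137-123718436, minus strand: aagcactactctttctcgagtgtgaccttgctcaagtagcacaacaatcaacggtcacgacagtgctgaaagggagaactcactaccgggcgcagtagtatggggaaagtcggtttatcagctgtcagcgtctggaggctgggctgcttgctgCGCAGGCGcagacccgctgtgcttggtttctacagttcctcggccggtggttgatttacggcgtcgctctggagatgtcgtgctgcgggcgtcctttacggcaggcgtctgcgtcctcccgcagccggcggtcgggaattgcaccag

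The windows differed in what they held although all 8 overlapped a member peak. Ndufv1 carried none of the 5 motifs and Ndufa3 a single SP match. Ndufb4 had 3 NRF1 matches and Uqcrc1 had 2, whereas Sdhb combined 3 SP matches with 1 ETS match. Atp5b and Atp5j2 shared a YY1 match close to the TSS. The 12 members without a matched window included Atp5a1, Atp5mpl, Cox4i1, Cox4i2, Cox6c, Ndufa2, Ndufa4l2, Ndufb9, Sdhc, Uqcrb and Uqcrc2.

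The member peaks resembled other promoter peaks in size and base composition. Their median width was 1026 bp against 1124 bp over all 14154 promoters, their median GC content 56.6% against 57.8%, and their observed-to-expected CpG ratio 0.689 against 0.625. The annotated peak touched the TSS in 59 members. The exception was Ndufa4l2, a hypoxia-inducible paralogue of Ndufa4, whose peak was 5165 bp wide and ended 717 bp before the annotated TSS. In 15 members the peak also contained the start of another coding gene, as in Sdhd with Timm8b, Ndufs6 with Mrpl36, Ndufa7 with Rps28 and Sdha with Ccdc127, and the signal of the pair cannot be told apart.

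The annotation lists 81 autosomal coding genes with these symbols, so 21 had no member peak. The table may hold regions called on H3K18La in the developing retina rather than on these explants, so a missing peak does not show a missing mark here. For 12 of them a promoter peak lay at the start site under the symbol of a neighbouring gene. These included Ndufs1, the largest complex I subunit, under Eef1b2, Ndufa4 under Phf14, Atp5f1 under Wdr77, Uqcrh under Lrrc41, and Atp5j under Gabpa, which itself encodes a regulator of mitochondrial genes. For the other 9 no peak of the table used here lay at the start site, among them the muscle isoforms Cox6a2 and Cox8b and the testis isoforms Cox7b2 and Cox8c, but also the ubiquitous Cox6a1, Cox6b1, Ndufa6, Ndufa9 and Atp5g1.

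Signal is given as RPKM, the reads of a peak divided by its width in kilobases and by the reads of the library, which compares peaks of different width. Whole reads could be recovered from these values, and the reads behind a member were few for H3K18La: the median member had 2, 5 and 1 reads in the 3 libraries at 5 mM and 5, 6 and 6 reads in the 3 libraries at 25 mM. For H3K27Ac the medians were 18 and 42 reads at 5 mM and 165 and 105 at 25 mM. At 5 mM, 10, 0 and 17 members had no H3K18La read in replicates 1, 2 and 3, and 46, 18 and 56 members had 3 reads or fewer. A single member's H3K18La level at 5 mM is therefore known only coarsely, whereas no member fell to 3 reads in any H3K27Ac library.

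In RPKM, the median subunit promoter had more of both marks at 25 mM glucose than at 5 mM. The median member had an H3K18La signal of 0.836, 0.902 and 0.746 RPKM in the 5 mM libraries and 2.81, 1.36 and 1.74 RPKM in the 25 mM libraries. Its H3K27Ac signal was 3.47 and 6.20 RPKM at 5 mM and 19.9 and 13.2 RPKM at 25 mM. The libraries of each mark thus separated by glucose without overlap, and replicate 1 at 25 mM was the highest for both marks.

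**Figure D1:**
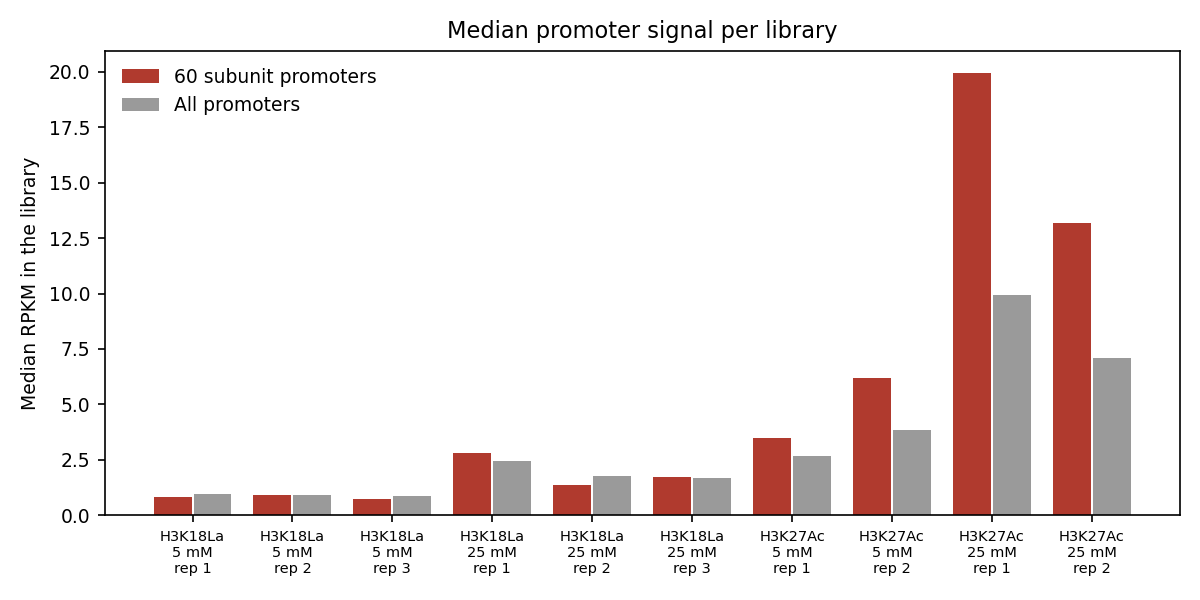
Median RPKM in each of the 10 libraries (bars, axis from 0) for the 60 subunit promoters and for all 14154 promoters. Subunit promoters sit close to all promoters for H3K18La (2.81 against 2.46 RPKM in replicate 1 at 25 mM) and well above them for H3K27Ac (19.9 against 9.91 RPKM).

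Promoters in general moved the same way. Over all 14154 promoters the median was 0.962, 0.914 and 0.878 RPKM for H3K18La at 5 mM and 2.46, 1.77 and 1.68 RPKM at 25 mM, and the H3K27Ac median went from 2.69 and 3.86 RPKM to 9.91 and 7.07 RPKM. The share of reads inside peaks was between 11.8% and 12% in the H3K18La libraries at 5 mM and between 31.2% and 35.0% at 25 mM. For H3K27Ac it was 21.1% and 31.5% at 5 mM and 69.5% and 56.5% at 25 mM. RPKM here is set by all mapped reads, so the change in this share is part of every fold change below, and its own part was not tested.

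Relative to other promoters, the members kept their share of H3K18La and stood higher in H3K27Ac. They held 0.338%, 0.361% and 0.302% of all promoter H3K18La reads at 5 mM and 0.389%, 0.300% and 0.318% at 25 mM. The 95% Wilson interval of replicate 3 at 5 mM ran from 0.242% to 0.376% and took in the other H3K18La libraries apart from replicate 1 at 25 mM. For H3K27Ac the share was 0.475% and 0.555% at 5 mM and 0.594% and 0.587% at 25 mM, and the intervals of the lower 25 mM library (0.574% to 0.601%) and of the higher 5 mM library (0.536% to 0.576%) met. These intervals cover counting error only.

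The limma fit covered all 72467 peaks with a mean of at least 1 RPKM over the 10 libraries of both marks. This mean rises with the 25 mM signal, that of H3K27Ac above all, so the filter is not independent of the comparison. At an adjusted p of 0.05, 9 of 60 members were higher in H3K18La at 25 mM and none was lower. Beside them 26.6% of all promoters were called higher (33.3% of all peaks). The median log2 fold change of the members was 0.92 and that of all promoters 0.96. All 25 mM libraries lay above all 5 mM libraries in 22 of 60 members, beside 50.3% of promoters. Without replicate 1 at 25 mM the count was 4, with 1747 in place of 3273 promoters called. Without the filter on mean RPKM it was 6, with 2384 promoters called. Scaling the libraries to their reads in peaks, or to the median peak, left no member called. The estimate was above 0 in 56 of 60 members (93.3%, beside 93.0% of promoters), but in 31 after centring on the median and in 30 after scaling to reads in peaks.

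For H3K27Ac, 50 of 60 members were higher at 25 mM and none was lower, beside 59.7% of all promoters called higher (33.5% of all peaks). The median log2 fold change was 1.66 against 1.27 for all promoters. All 60 members had both 25 mM libraries above both 5 mM libraries, beside 86.9% of promoters. The count was 24 under the replicate block, with 2116 promoters called, and 0 of members and promoters without the filter on mean RPKM. With 2 libraries per level it rested on both 25 mM libraries: without replicate 1 at 25 mM no member passed, and without replicate 2 only Ndufa13 and Ndufb6 did, in fits that called 1 and 298 of 12320 promoters. The member median fold change in these fits was 1.39 and 1.92 on the log2 scale. The moderation of this fit gave peaks of like level the same spread, pooled over all peaks, so these p-values do not rest on each promoter's own spread. After scaling to reads in peaks no member passed and 48 of 60 estimates stayed above 0, while centring on the median peak left 5 calls and 59 estimates above 0. The member median log2 fold change was 0.44 under the first of these scalings and 0.97 under the other, beside 0.10 and 0.57 for all promoters.

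The 9 members called for H3K18La were all among the 50 called for H3K27Ac, beside 2391 promoters called higher in both marks of the 3273 called higher for H3K18La. The deviations from the group means at 25 mM had an r between marks of 0.19 over peaks for replicate 1 and 0.07 for replicate 2. Over the 60 members the 2 log2 fold changes had a Pearson r of 0.29 and a Spearman rho of 0.31, and over 12320 promoters 0.29 and 0.26. These describe points that share libraries and base composition within each mark.

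**Figure D2:**
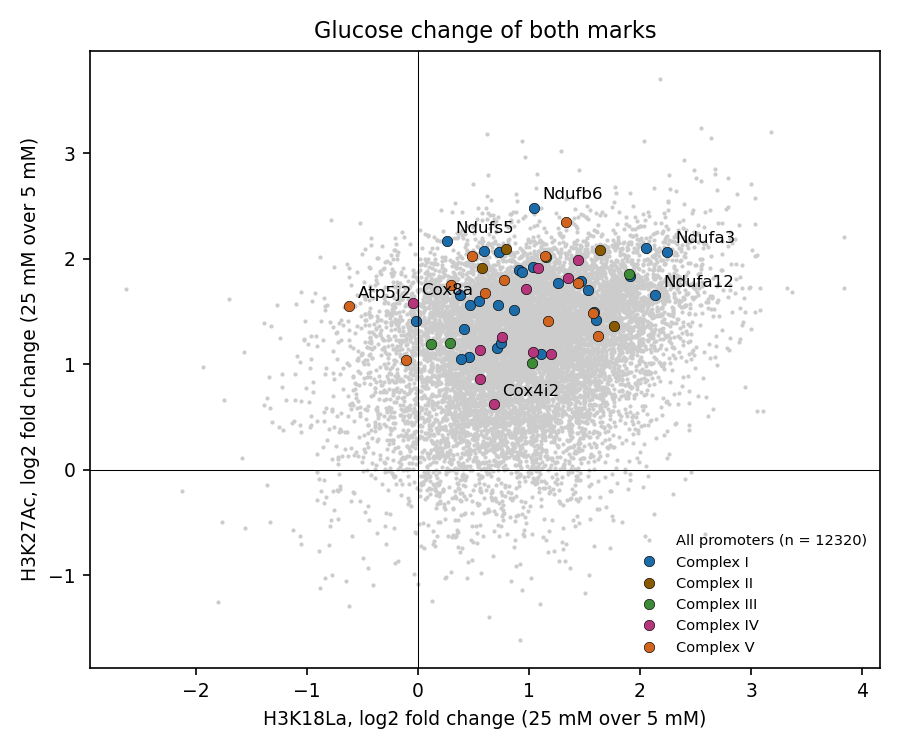
Log2 fold change (25 mM over 5 mM glucose) of H3K18La (horizontal) and H3K27Ac (vertical) for the 60 subunit promoters, coloured by complex, over 12320 promoters in grey. All members lie above 0 on the vertical axis, between 0.63 and 2.49, and 56 of 60 lie to the right of 0 on the horizontal axis.

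The promoters were divided into 4 equal classes by mean RPKM over the 10 libraries, a mean that itself rises with the 25 mM signal, with 2 members in the lowest class, 9 in the next, 31 in the third (3.98 to 6.31 RPKM) and 18 in the highest. In the highest class 61.4% of promoters were called for H3K18La and 8 of 18 members were, while in the third class 23.1% of promoters and 1 of 31 members were. The H3K27Ac medians of members and promoters were 1.71 and 1.42 on the log2 scale in the third class and 1.73 and 1.58 in the highest. In the 2 lower classes they were 1.35 and 0.58, over 2 members, and 1.20 and 1.15. In calls the order was not that of the medians: for H3K27Ac 28 of 31 members and 77.3% of promoters were called in the third class, but 13 of 18 members and 85.8% of promoters in the highest. These differences were not tested.

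**Figure D3:**
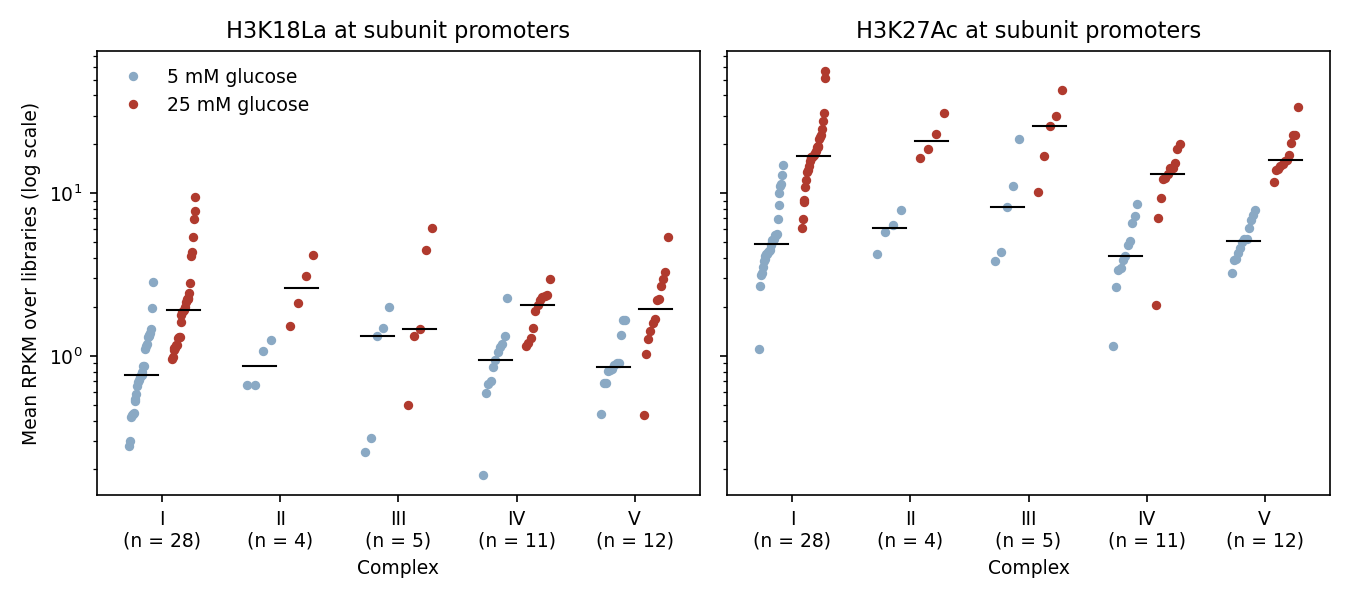
Mean RPKM of each subunit promoter (points, log axis) at 5 mM and 25 mM glucose, grouped by complex, for H3K18La (3 libraries per level) and H3K27Ac (2 libraries per level); black lines are medians over the members of a complex. The 25 mM median lies above the 5 mM median in every complex and both marks, by the least for H3K18La in complex III (1.32 and 1.47 RPKM).

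Complex I, as assigned by symbol, held 6 of the 9 H3K18La calls and 25 of the 50 H3K27Ac calls, from 28 members. Over all promoters 26.6% and 59.7% were called higher. Both counts include Ndufa4l2, a paralogue of Ndufa4, which despite its name is a subunit of complex IV. The strongest promoter was Ndufv1 (peak chr19:4012671-4013105), which encodes the flavoprotein subunit that accepts electrons from NADH. Its H3K18La signal was 3.27, 3.55 and 1.69 RPKM at 5 mM and 16.4, 5.09 and 6.98 RPKM at 25 mM (log2 fold change 1.47 ± 0.43 SE, limma adjusted p = 0.0219). Its H3K27Ac signal was 10.6 and 19.2 RPKM at 5 mM and 58.2 and 44.6 RPKM at 25 mM (1.79 ± 0.57 on the log2 scale, adjusted p = 0.0108). The 25 mM libraries were above the 5 mM libraries in both marks, although the H3K18La call was lost without replicate 1 at 25 mM or replicate 3 at 5 mM.

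Ndufa3, an accessory subunit of the membrane arm, had the largest H3K18La change among the members. Its levels were 0.695, 0.283 and 1.08 RPKM at 5 mM, from 1 read in each library, and 8.95, 3.25 and 3.95 RPKM at 25 mM, from 12, 9 and 8 reads. The log2 fold change was 2.25 ± 0.48 (limma adjusted p = 0.00535), and the promoter passed without any single library. In H3K27Ac it went from 10.5 and 15.3 RPKM to 70.5 and 42.7 RPKM (2.07 ± 0.56, limma adjusted p = 0.00384). Ndufa3 and Ndufv1 had the highest mean H3K27Ac at 25 mM of all 60 members, although Uqcrb was above both in replicate 2 (48.0 RPKM).

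The wide Ndufa4l2 peak, which stands upstream of its TSS, carried the most H3K18La reads of all members. Its level was 1.47, 1.68 and 0.998 RPKM at 5 mM and 11.5, 7.09 and 4.57 RPKM at 25 mM, the latter from 117, 149 and 70 reads (log2 fold change 2.06 ± 0.39, limma adjusted p = 0.00278). This call held without any single library. H3K27Ac at the same peak went from 2.78 and 5.70 RPKM to 23.8 and 14.9 RPKM (2.10 ± 0.47, adjusted p = 0.000592). Its ratio of H3K27Ac to H3K18La at 25 mM was 2.50, the second lowest of the members after Cox4i2, where the median member had 8.54 and the median promoter 3.61.

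Ndufa12, an accessory subunit of the matrix arm, was listed at 0 H3K18La in 2 of the 5 mM libraries and at 0.904 RPKM in the other, and at 4.17, 1.44 and 2.76 RPKM at 25 mM. Its log2 fold change of 2.13 ± 0.61 (limma adjusted p = 0.0199) rested on 7, 5 and 7 reads at 25 mM and 0, 4 and 0 reads at 5 mM, and was lost in turn without replicate 1 at 5 mM, replicate 1 at 25 mM or replicate 3 at 25 mM. Ndufb4, a membrane-arm subunit outside the naming rule that was chosen after its values were seen, was called with 0.358, 1.31 and 0.556 RPKM at 5 mM and 7.30, 2.41 and 3.31 RPKM at 25 mM (1.91 ± 0.51, adjusted p = 0.0149). It was not called without replicate 1 at 25 mM.

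Members of complex I that passed only in H3K27Ac included the iron-sulfur subunits Ndufs7 and Ndufs8. Ndufs8 had 0.788, 0.802 and 0 RPKM of H3K18La at 5 mM and 3.81, 1.23 and 2.24 RPKM at 25 mM without overlap, but its adjusted p was 0.0635 in the limma fit. Ndufs7 had 0.893, 0.363 and 0 RPKM at 5 mM and 0.479, 0.926 and 2.54 RPKM at 25 mM, so its levels overlapped. In H3K27Ac, Ndufs8 went from 2.88 and 7.5 RPKM to 17.8 and 15.1 RPKM and Ndufs7 from 2.61 and 4.40 RPKM to 14.9 and 12.8 RPKM, with log2 fold changes of 1.70 ± 0.47 and 1.88 ± 0.46 (limma adjusted p = 0.00445 and 0.00148).

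The largest H3K27Ac change of all members was that of Ndufb6, another membrane-arm subunit. It rose from 1.66 and 4.62 RPKM to 21.1 and 15.6 RPKM (log2 fold change 2.49 ± 0.46, limma adjusted p = 3.23e-05), while its H3K18La change of 1.04 ± 0.53 did not pass (adjusted p = 0.143). Ndufs5, a small subunit of the membrane arm on the intermembrane side, had the third largest, from 3.38 and 4.52 RPKM to 23.2 and 16.1 RPKM (2.17 ± 0.47, adjusted p = 0.000409). Its H3K18La levels were 1.16, 0.235 and 0.898 RPKM at 5 mM and 0.620, 1.5 and 0.822 RPKM at 25 mM, from 1 to 5 reads, and overlapped. Ndufa13, the weakest complex I promoter on average, still rose in H3K27Ac from 0.654 and 1.55 RPKM to 7.55 and 4.65 RPKM (2.07 ± 0.44, adjusted p = 0.000264). Its peak also covers the start of Yjefn3.

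Complex II, which also serves the citric acid cycle as succinate dehydrogenase, has 4 nuclear subunits, and all 4 had a member peak. All 4 were called higher in H3K27Ac, beside 59.7% of all promoters. Sdhb, the iron-sulfur subunit (peak chr4:140960590-140961583), had 1.91, 0.582 and 0.741 RPKM of H3K18La at 5 mM and 4.09, 5.44 and 3.05 RPKM at 25 mM (log2 fold change 1.64 ± 0.45, limma adjusted p = 0.0166). Its H3K27Ac went from 3.72 and 12 RPKM to 38 and 24.1 RPKM (2.08 ± 0.51, adjusted p = 0.00136). The libraries did not overlap in either mark, yet the H3K18La call was lost without replicate 2 at 5 mM or without replicate 1 or 2 at 25 mM.

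Sdhc, one of the membrane anchors, had 0, 0.684 and 1.31 RPKM of H3K18La at 5 mM and 3.61, 3.92 and 1.79 RPKM at 25 mM. Its log2 fold change was 1.76 ± 0.57 (limma adjusted p = 0.0348), and it passed in 2 of the 6 fits that left out a library, those without replicate 3 at either level. The other anchor, Sdhd, and the flavoprotein Sdha did not pass for H3K18La, at 0.57 ± 0.50 and 0.79 ± 0.70. In H3K27Ac the changes of Sdha, Sdhc and Sdhd were 2.10 ± 0.47, 1.37 ± 0.48 and 1.91 ± 0.49 (limma adjusted p = 0.00057, 0.0201 and 0.00217).

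In complex III, 1 of 5 members was called for H3K18La and 3 of 5 for H3K27Ac, beside 26.6% and 59.7% of all promoters called higher. Uqcrc1, a core protein of the matrix domain (peak chr9:108936440-108937235), had 1.19, 0.485 and 2.78 RPKM of H3K18La at 5 mM and 7.67, 5.25 and 5.51 RPKM at 25 mM. Its log2 fold change of 1.90 ± 0.45 (limma adjusted p = 0.00882) held without any single library, and its H3K27Ac went from 5.23 and 11.3 RPKM to 35.3 and 24.4 RPKM (1.86 ± 0.51, adjusted p = 0.00409). Uqcrc2, the other core protein, had 1.72, 1.57 and 0.668 RPKM of H3K18La at 5 mM and 0.922, 1.34 and 2.14 RPKM at 25 mM. These overlapped, the estimate was 0.12 ± 0.50, and its sign turned under each of 3 other scalings. Uqcrc2 also missed the threshold in H3K27Ac (1.19 ± 0.52, adjusted p = 0.06).

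Uqcrb, a small ubiquinone-binding subunit, was the complex III promoter with the most signal on average and one of the least changed. It had 17.4 and 25.8 RPKM of H3K27Ac at 5 mM, the highest 5 mM levels of the 60 members, and 38.9 and 48.0 RPKM at 25 mM (log2 fold change 1.01 ± 0.58, limma adjusted p = 0.157). Its H3K18La levels of 2.60, 2.38 and 1.01 RPKM and of 4.88, 3.04 and 5.55 RPKM did not overlap (1.03 ± 0.41, adjusted p = 0.0699). Uqcrfs1, the Rieske iron-sulfur protein, was the weakest of the complex, with 0 to 1 reads of H3K18La at 5 mM and 0, 6 and 1 reads at 25 mM, and rose in H3K27Ac from 2.68 and 5.99 RPKM to 12.5 and 7.90 RPKM (1.2 ± 0.46, adjusted p = 0.0307).

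Complex IV, as assigned by symbol and so without Ndufa4l2, had no H3K18La call among 11 members, and its H3K27Ac median change of 1.26 was below the 1.66 of all members, as was the 1.2 of complex III. Of its 11 members 7 were called higher in H3K27Ac. Over all promoters 26.6% were called higher in H3K18La and 59.7% in H3K27Ac. Cox5b, a zinc-binding structural subunit, did not overlap between glucose levels in either mark, with 0.751, 0.764 and 0.583 RPKM of H3K18La at 5 mM against 3.63, 1.36 and 1.60 RPKM at 25 mM (log2 fold change 1.08 ± 0.50, limma adjusted p = 0.115) and with 2.57 and 4.21 RPKM of H3K27Ac against 18.1 and 10.5 RPKM (1.91 ± 0.46, adjusted p = 0.00121). Cox5a narrowly missed in H3K27Ac (4.42 and 10.2 RPKM against 17.7 and 13.2 RPKM, 1.12 ± 0.48, adjusted p = 0.0563). Cox7c had 7.53 and 5.65 RPKM against 12.5 and 12 RPKM (0.86 ± 0.47, adjusted p = 0.139), the second smallest change. Cox8a, a small structural subunit, rose in H3K27Ac (1.58 ± 0.46, adjusted p = 0.0061) with H3K18La estimated at -0.04 ± 0.49, a sign that turned after correction for GC content.

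Isoforms of complex IV subunits differed in level. Cox4i1, the ubiquitous form of subunit IV, had 7.07 and 10.1 RPKM of H3K27Ac at 5 mM and 26.7 and 13.7 RPKM at 25 mM (log2 fold change 1.14 ± 0.50, limma adjusted p = 0.061), and its peak contains the start of Emc8. Cox4i2, the form linked to hypoxia and lung, had 1.07 and 1.24 RPKM at 5 mM and 1.92 and 2.17 RPKM at 25 mM, the lowest H3K27Ac at 25 mM and the smallest H3K27Ac change of the 60 members (0.63 ± 0.47, adjusted p = 0.283). Its change turned negative when libraries were scaled to the median peak or to reads in peaks. In H3K18La Cox4i1 had 0, 1.40 and 5.36 RPKM at 5 mM and 2.22, 3.94 and 0.982 RPKM at 25 mM, and Cox4i2 had 0.729, 1.04 and 0 RPKM and then 0.782, 1.89 and 0.777 RPKM. The levels of the pair overlapped at both glucose levels, and neither changed past the threshold (0.56 ± 0.78 and 0.68 ± 0.61).

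Among the forms of subunit VIIa, the heart and muscle form Cox7a1 had less H3K27Ac at 25 mM than Cox7a2 or the supercomplex factor Cox7a2l. Cox7a1 had 2.14 and 7.46 RPKM at 5 mM and 8.29 and 10.5 RPKM at 25 mM (log2 fold change 1.10 ± 0.45, limma adjusted p = 0.047), a call that ended with an estimate of -0.059 when libraries were scaled to reads in peaks. Cox7a2 went from 2.32 and 7.85 RPKM to 18.7 and 18.7 RPKM (1.99 ± 0.47, adjusted p = 0.00114), and Cox7a2l from 2.90 and 5.35 RPKM to 16.2 and 12.3 RPKM (1.71 ± 0.46, adjusted p = 0.00356). The testis form Cox6b2 was marked in these retinas, at 2.26 and 3.02 RPKM of H3K27Ac rising to 7.83 and 6.17 RPKM (1.26 ± 0.44, adjusted p = 0.0203), while no peak lay at the start of the common form Cox6b1.

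**Figure D4:**
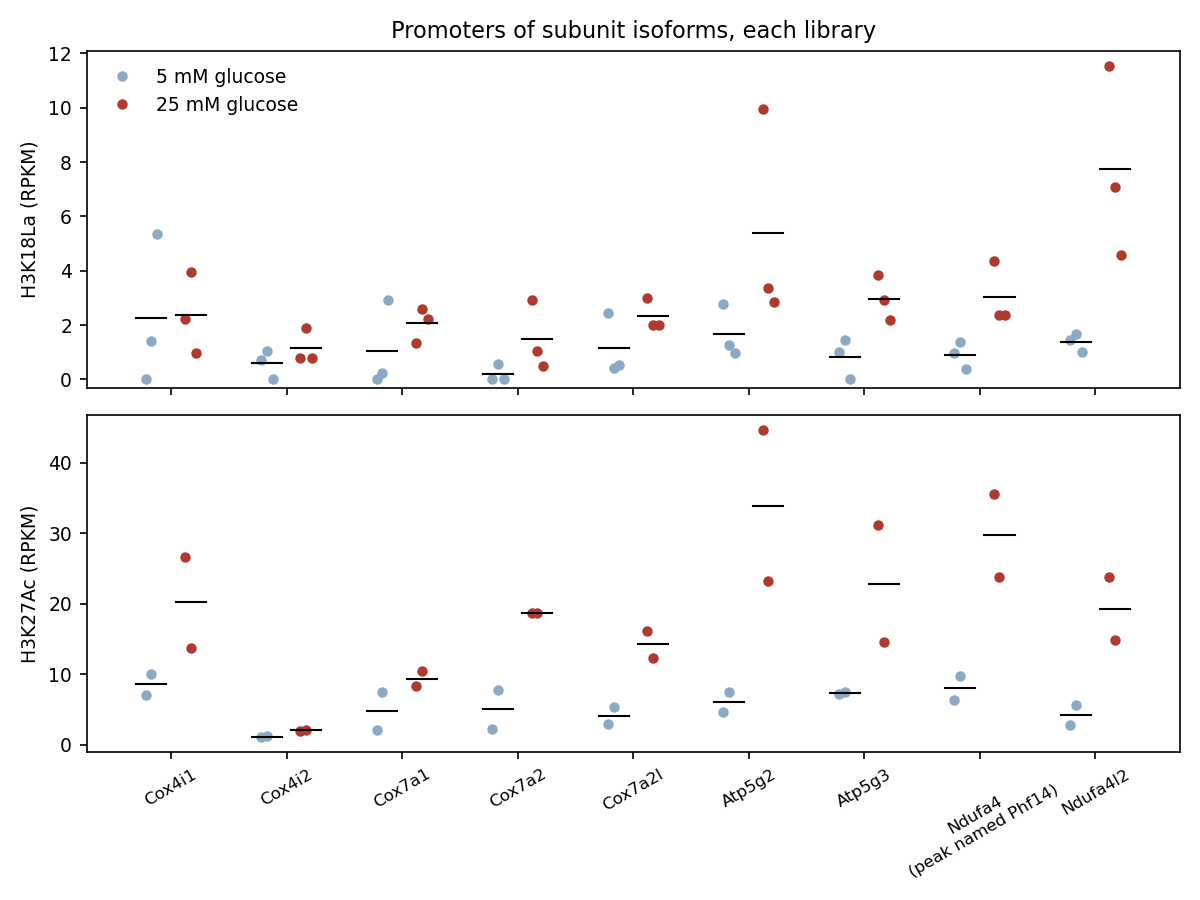
RPKM in each library (points) with group means (black lines) for isoform promoters, H3K18La above and H3K27Ac below, at 5 mM and 25 mM glucose; the Ndufa4 peak carries the symbol of its neighbour Phf14. Cox4i2 stays below 2.2 RPKM of H3K27Ac in all 4 libraries, and Ndufa4l2 reaches 11.5 RPKM of H3K18La at 25 mM.

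The ATP synthase had no H3K18La call among 12 members and 11 H3K27Ac calls, beside 26.6% and 59.7% of all promoters called higher. Atp5b, the catalytic beta subunit (peak chr10:128082640-128083893), had 1.13, 0.923 and 0.587 RPKM of H3K18La at 5 mM and 1.62, 1.57 and 1.08 RPKM at 25 mM (log2 fold change 0.48 ± 0.48), and 3.87 and 5.39 RPKM of H3K27Ac rising to 24.5 and 16.5 RPKM (2.02 ± 0.48, limma adjusted p = 0.00101). Atp5a1, the alpha subunit, had 2.05, 0.666 and 0 RPKM of H3K18La at 5 mM and 5.27, 1.91 and 2.62 RPKM at 25 mM (1.62 ± 0.62, adjusted p = 0.0654). Its peak also holds the start of Haus1. The central-stalk gamma subunit Atp5c1 was called in H3K27Ac (1.68 ± 0.47, limma adjusted p = 0.00444). In H3K18La its mean was 0.678 RPKM at 5 mM and 1.27 RPKM at 25 mM, and it missed the threshold. The epsilon subunit Atp5e was the one member of complex V that missed in H3K27Ac (1.05 ± 0.49, limma adjusted p = 0.0771).

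The c-ring genes Atp5g2 and Atp5g3 encode the same mature protein, and both were strongly marked. Atp5g2 had 2.79, 1.26 and 0.962 RPKM of H3K18La at 5 mM and 9.97, 3.37 and 2.86 RPKM at 25 mM (log2 fold change 1.34 ± 0.50, limma adjusted p = 0.0588), and 4.68 and 7.47 RPKM of H3K27Ac rising to 44.6 and 23.2 RPKM (2.35 ± 0.50, adjusted p = 0.000339). Atp5g3 had 1.02, 1.45 and 0 RPKM of H3K18La at 5 mM and 3.83, 2.91 and 2.18 RPKM at 25 mM (1.58 ± 0.57, adjusted p = 0.0522), and 7.22 and 7.45 RPKM of H3K27Ac rising to 31.1 and 14.6 RPKM (1.48 ± 0.50, adjusted p = 0.0156). All 25 mM libraries of both genes lay above the 5 mM libraries in both marks. The weakest promoter of the complex, that of the peripheral-stalk subunit Atp5o, rose in H3K27Ac from 2.04 and 4.47 RPKM to 13.5 and 10.0 RPKM (1.77 ± 0.45, adjusted p = 0.00217).

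Atp5j2, a membrane subunit of the synthase, had the lowest H3K18La change of the 60 members. It had 0.487, 1.19 and 0.757 RPKM at 5 mM, from 1, 6 and 1 reads, and 1.05, 0.253 and 0 RPKM at 25 mM, from 2, 1 and 0 reads (log2 fold change -0.62 ± 0.61, limma adjusted p = 0.442). The levels overlapped. In H3K27Ac it rose from 3.57 and 6.95 RPKM to 18 and 13.6 RPKM (1.55 ± 0.47, adjusted p = 0.00861).

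Another 23 members were left after the others had been named, in part by their values, which shapes the counts given here. They had mean H3K18La levels of 0.279 to 1.46 RPKM at 5 mM and 0.957 to 4.09 RPKM at 25 mM. None was called, beside 26.6% of all promoters, with log2 fold changes from -0.02 to 1.61. Their mean H3K27Ac levels were 2.68 to 11.5 RPKM at 5 mM and 6.91 to 27.9 RPKM at 25 mM. In this mark 20 of 23 were called higher, beside 59.7% of all promoters, with all 23 estimates between 1.05 and 2.08.

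**Figure D5:**
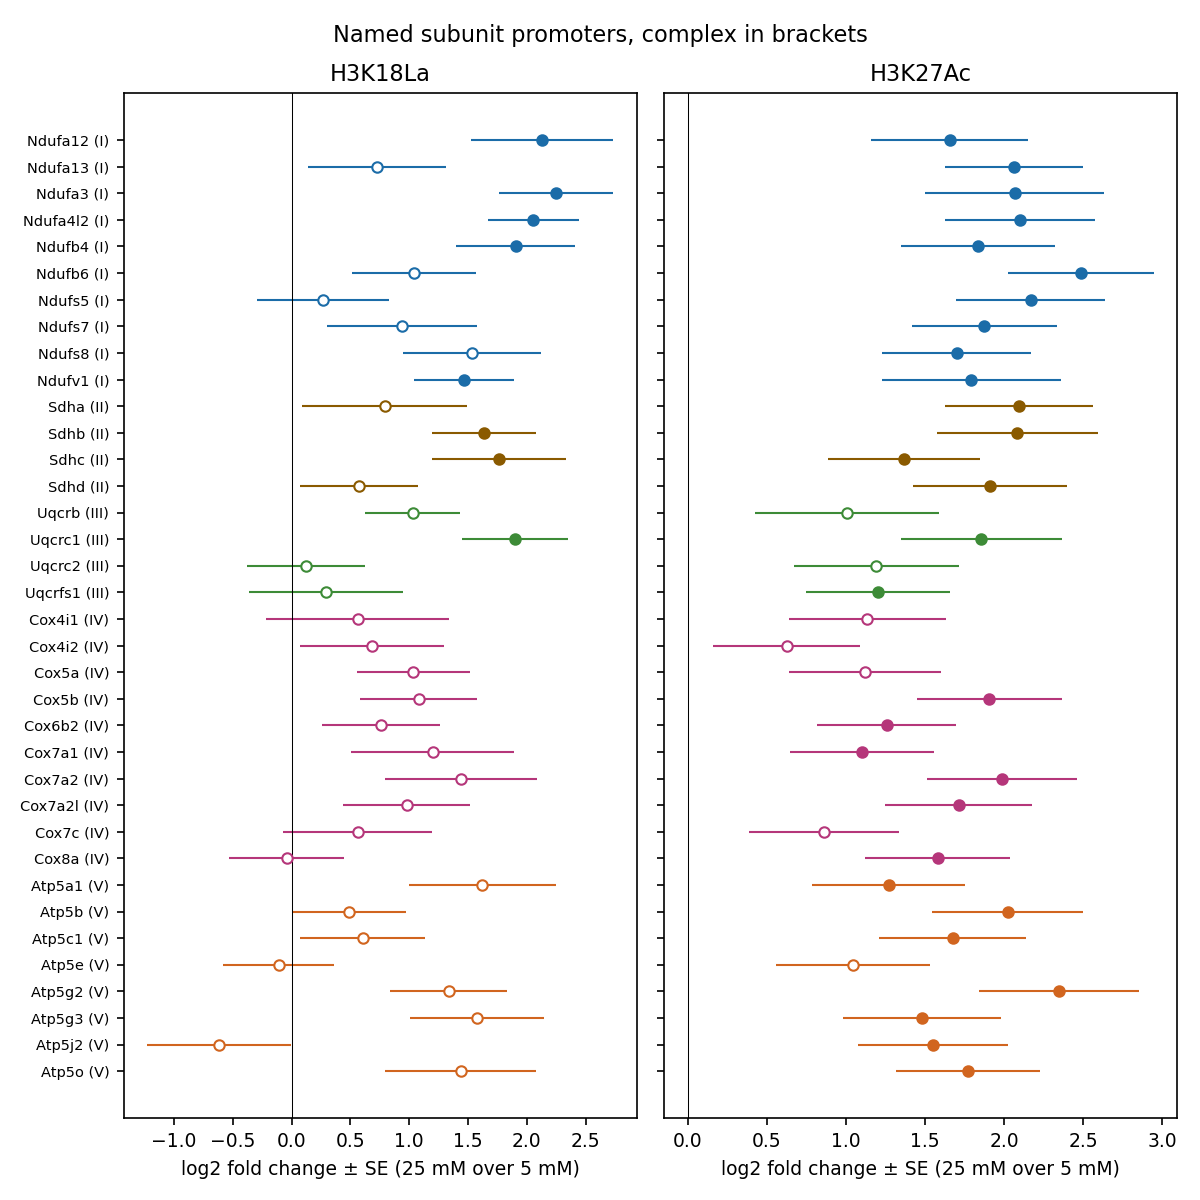
Log2 fold change with its SE (25 mM over 5 mM glucose, limma) for 36 named subunit promoters in H3K18La (left) and H3K27Ac (right); filled points have an adjusted p under 0.05. In H3K18La the 8 filled points belong to complexes I, II and III as assigned by symbol, and all points in H3K27Ac lie right of 0, from Cox4i2 at 0.63 to Ndufb6 at 2.49.

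Whether the glucose change differed between the marks was tested as an interaction over all 10 libraries. No member and no peak passed the adjusted threshold (0.0% of 72467 peaks), and 6 of 60 members had an unadjusted p under 0.05 beside 5.32% of promoters. The interaction, the H3K18La minus the H3K27Ac log2 fold change, had a median of -0.66 over members and -0.21 over promoters. It was above 0 in 13 of 60 members, beside 39.4% of promoters. This count was 23 at a pseudocount of 0.1, 2 at a pseudocount of 1 and 3 under median centring. The member median ranged from -0.28 at a pseudocount of 0.1 to -1.10 without H3K27Ac replicate 2 at 5 mM, and was -0.35 without replicate 1 at 5 mM. The promoter median turned above 0 at a pseudocount of 0.1 (0.06), with the GC trend removed, with or without the replicate block (0.05), and without H3K27Ac replicate 1 at 5 mM (0.006) or at 25 mM (0.024). The lowest unadjusted p-values in the limma fit were 0.0101 for Atp5j2 (-2.17), 0.0114 for Ndufs5 (-1.90), 0.0167 for Atp5b (-1.54) and 0.0181 for Cox8a (-1.62). In these 4 genes H3K27Ac rose while the H3K18La levels did not pass the test, so the difference between the marks is not shown for any single member. The complexes I, II and III also cannot be set apart from IV and V by their H3K18La calls, since the difference was not tested.

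The 12 start sites of subunit genes whose peak carries a neighbour's symbol were fitted as well. All 12 peaks were called higher in H3K27Ac, with log2 fold changes from 1.25 to 2.26, and 3 were called in H3K18La, with a median of 1.07 over the 12, beside 59.7% and 26.6% of all promoters. The Ndufa4 start site went from 6.44 and 9.78 RPKM of H3K27Ac to 35.6 and 23.9 RPKM, and the Ndufs1 start site from 6.76 and 7.44 RPKM to 22.4 and 16.6 RPKM. Peaks of the member genes outside promoters were fewer: 42 peaks of 26 genes, of which 32 were fitted, 11 called higher in H3K18La and 17 in H3K27Ac, beside 35.0% and 27.2% of all fitted peaks outside promoters. Their interaction median was 0.05 and that of the member promoters -0.66, beside 0.34 over all fitted peaks outside promoters and -0.21 over all promoters.

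The members that share a peak with another coding start were not called for H3K18La in any of 15 cases, with a median log2 fold change of 0.73, while the 45 others included all 9 calls and had a median of 1.08. In H3K27Ac 12 of 15 and 38 of 45 were called. Over all promoters the called shares were 26.6% for H3K18La and 59.7% for H3K27Ac. The difference between these sets was not tested.

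Genes that build or supply the chain were read from lists of assembly factors and regulators. Of 51 assembly factors 33 had a fitted promoter peak, of which 8 were called higher in H3K18La and 28 in H3K27Ac, with medians of 0.99 and 1.56 on the log2 scale, beside 26.6% and 59.7% of all promoters and their medians of 0.96 and 1.27. For complex IV assembly it was 2 and 14 of 15, and for complex I assembly 2 and 8 of 9. For the small lists of complexes II, III and V it was 1 and 1 of 3, 2 and 4 of 4, and 1 and 1 of 2. Of subunit genes that the naming pattern leaves out, Ndufab1 and Cyc1 had a fitted peak, with 0 and 1 calls. Among 10 fitted regulators of mitochondrial biogenesis, such as Nrf1, Gabpa, Tfam and Ppargc1a, 2 were called in H3K18La and 8 in H3K27Ac (medians 1.17 and 1.46). The 9 fitted enzymes of the citric acid cycle had 1 and 6 calls (0.58 and 1.2), and the 2 fitted of 3 genes for cytochromes c and c1 had 0 and 2. None of these was called lower.

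Ribosomal and proteasome genes, which most cells express, were read for comparison without a test. Of 56 cytosolic ribosomal protein promoters 2 were called higher in H3K18La and 52 in H3K27Ac, with medians of 0.71 and 1.54, and of 26 proteasome subunits 4 and 20, with medians of 0.75 and 1.48, beside the same shares of all promoters. The ratio of H3K27Ac to H3K18La at 25 mM was 8.88 and 7.61 in these families and 8.54 in the members, against 3.61 over all promoters. Their interaction medians were -0.86 and -0.72.

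Cell type markers were read beside these changes. Of 12 rod marker genes 11 had a promoter peak, and all 11 were called higher in both marks, with median log2 fold changes of 2.45 for H3K18La and 2.15 for H3K27Ac. Their summed signal was 15.4 to 21.7 RPKM of H3K18La at 5 mM and 75.6 to 184 RPKM at 25 mM, and that of H3K27Ac 65.5 to 116 RPKM and 319 to 582 RPKM. No fitted or unfitted marker with a promoter peak was at 0 reads in every library of a mark. Of the other marker lists, 2 of 5 fitted cone genes, 0 of 4 bipolar, 1 of 2 amacrine, 0 of 1 ganglion, 0 of 5 Mueller glia, 1 of 2 pigment epithelium, 0 of 1 microglia and 0 of 3 endothelium genes were called higher in H3K18La. In H3K27Ac the calls were 2, 4, 1, 1, 2, 0, 0 and 0 in the same order, and 1 endothelium gene was called lower. Over all promoters 26.6% were called higher in H3K18La and 59.7% in H3K27Ac. With 1 to 5 fitted genes each, these lists do not allow a contrast between cell types. Defining markers without a promoter peak included Rpe65 and Tyr of the pigment epithelium, Cx3cr1 and P2ry12 of microglia, and Pecam1 of the endothelium. The rod medians were above the member medians of 0.92 for H3K18La and 1.66 for H3K27Ac. The part of rods in the members' change was not tested.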

How the data were processed

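The authors aligned CUT&Tag reads to GRCm38, called peaks with MACS, merged consensus peaks, annotated them with ChIPseeker 1.34.1 against Ensembl and deposited RPKM per peak and library. The number of peaks equals that of the study's merged peak set of the developing retina, so the regions may not have been called on these explants or on H3K27Ac. The submitters' notes also name edgeR 3.40.2, and the authors' own comparison table, which holds fold changes and p-values, was not used. The RPKM values gave whole reads for 100.0% of values at a tolerance of 0.05 reads. Total reads behind RPKM were 1358008 to 5182766 per H3K18La library and 4324289 to 7424470 per H3K27Ac library.

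Peaks with a mean of at least 1 RPKM (72467) were fitted with limma 3.58.1 in R 4.3.3 (trended moderation) on log2(RPKM + 0.5), by mark, with p-values adjusted by Benjamini-Hochberg over all fitted peaks. A fold change on this scale understates changes of weak peaks. The glucose-by-mark interaction used all 10 libraries. On simulated data with 200 of 72467 peaks made different, the fit called 117 for H3K18La and 168 for H3K27Ac, with 0 and 1 false calls. In the libraries themselves 24150 peaks were called higher for H3K18La and 24249 for H3K27Ac. The number of false calls with that many peaks different was not tested. How many of the members the fit would find at their own levels was not tested either. The spread of reads between replicates over counting noise (chi-square per degree of freedom) was 1.04 to 1.06 among the H3K18La 5 mM libraries (p = 1.22e-05 for replicates 2 and 3, the closest pair, from counting noise alone) and 1.14 to 2.87 in the other groups, so all libraries were kept, with the closest pair averaged as an alternative.

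Members and lists were chosen with earlier results of these data known. A member of the naming rule is not reported here. Named members were fixed core subunits and isoform sets, the strongest and weakest promoter of each complex, and the 3 largest and 3 smallest changes per mark. Alternatives covered pseudocounts of 0.1 and 1, no filter, scaling, voom on recovered reads, robust moderation, GC content, a replicate block, a threshold of 0.01, averaged libraries, the peak nearest the TSS and each library left out. X-linked peaks (2 genes) and 1 pseudogene symbol were left out. Low read counts limit H3K18La: 3 reads in a peak of median width correspond to 0.564 to 2.15 RPKM at 5 mM.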

Additional observations from a re-analysis of the deposited data

How the results depend on the processing

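Members called for H3K18La numbered 9, and 0 under median centring, 0 when scaled to reads in peaks, 3 when centred on the weakest 10% of peaks, 17 with voom on recovered reads, 15 with the GC trend removed, 4 at a threshold of 0.01 and 4 to 11 with single libraries left out, the lowest without replicate 1 at 25 mM. Promoter calls moved too, from 3273 to 139, 0, 1089, 4906, 4204 and 1407 in the same order and to 1747 without that library. For H3K27Ac the 50 calls became 0 without the filter on mean RPKM (7349 promoter calls became 0 as well), 5 under median centring, 0 when scaled to reads in peaks, 24 under the replicate block, 28 under the replicate block with GC trend removed, and 0 to 58 with single libraries left out, where a lone 25 mM or 5 mM library is assumed to vary like the other group. The replicate block gave 13 H3K18La calls, with 3052 promoters called higher, and voom 56 H3K27Ac calls, with 7984 promoters called higher. The number of H3K27Ac promoter calls fell from 7349 to 386 under median centring, 0 when scaled to reads in peaks, 2116 under the block and 1886 under the block with GC trend removed. Same-numbered libraries of a mark had deviations that correlated at 0.013 to 0.029, under the 0.1 taken as pairing. The cause of these changes was not tested.

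No member passed the glucose-by-mark test under any alternative. The member median minus the promoter median was -0.04 for H3K18La and 0.39 for H3K27Ac. It ran from -0.13 to 0.07 and from 0.24 to 0.51 over fits without 1 library. H3K18La estimates of named members that changed sign under median centring were Atp5b (-0.39), Atp5c1 (-0.27), Cox4i1 (-0.32), Cox4i2 (-0.20), Cox6b2 (-0.12), Cox7c (-0.32), Ndufa13 (-0.15), Ndufs5 (-0.61), Sdha (-0.087), Sdhd (-0.30), Uqcrc2 (-0.76) and Uqcrfs1 (-0.59). H3K18La estimates of named members that changed sign when scaled to reads in peaks were Atp5b (-0.57), Atp5c1 (-0.34), Cox4i1 (-0.31), Cox4i2 (-0.030), Cox5a (-0.074), Cox6b2 (-0.30), Cox7a2l (-0.045), Cox7c (-0.23), Ndufa13 (-0.062), Ndufs5 (-0.68), Sdhd (-0.55), Uqcrb (-0.20), Uqcrc2 (-1.01) and Uqcrfs1 (-0.18). H3K18La estimates of named members that changed sign with the GC trend removed were Cox8a (0.10). H3K18La estimates of named members that changed sign under the replicate block with GC trend removed were Cox8a (0.10). H3K18La estimates of named members that changed sign when centred on the weakest 10% of peaks were Ndufs5 (-0.22), Uqcrc2 (-0.36) and Uqcrfs1 (-0.19). H3K27Ac estimates of named members that changed sign when scaled to reads in peaks were Atp5e (-0.17), Cox4i1 (-0.091), Cox4i2 (-0.31), Cox5a (-0.090), Cox7a1 (-0.059), Cox7c (-0.35), Uqcrb (-0.25) and Uqcrc2 (-0.047). H3K27Ac estimates of named members that changed sign under median centring were Cox4i2 (-0.065). With single libraries left out, the H3K18La estimate of named members changed sign at Atp5e (from -0.42 to 0.13), Cox4i1 (from -0.35 to 1.42), Cox7c (from -0.068 to 1.05), Cox8a (from -0.25 to 0.24), Ndufs5 (from -0.083 to 0.50), Uqcrc2 (from -0.17 to 0.33) and Uqcrfs1 (from -0.20 to 0.69). All of these changes missed the threshold before and after the change of sign, except Cox7a1 in H3K27Ac, which had passed it (1.10, limma adjusted p = 0.047). Over all 60 members, H3K18La estimates above 0 went from 56 to 31 under median centring, 30 when scaled to reads in peaks, 47 on the weakest 10% and 58 with the GC trend removed, and H3K27Ac estimates from 60 to 48 when scaled to reads in peaks. Median peak changes of 1.04 (H3K18La) and 0.83 (H3K27Ac) on the log2 scale fell to 0.16 and 0.14 under median centring and to 0.05 and -0.21 when scaled to reads in peaks.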
